A study of Homo sapiens with 6 samples.

Results

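The MAP kinase cascade is a relay of protein kinases. MAP4K enzymes at the top act on MAP3K enzymes, which phosphorylate MAP2K enzymes, and these in turn activate the MAPK enzymes at the bottom. The ERK branch is known for carrying growth factor signals, and the JNK and p38 branches are known for responses to stress and cytokines. In squamous epithelium and its carcinomas the cascade takes part in proliferation, migration, and differentiation. Its genes were selected here by symbol, as MAPK, MAP2K, MAP3K, or MAP4K followed by a number, which gave 40 of the 34423 gene names on the array, not counting names that only repeat a probe's own ID, and 67 of its 50599 probes.

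Expression was measured on 6 one-color arrays from HSC-3, KON, and Ca9-22, established cell lines of oral squamous cell carcinoma. Each line was transfected by Lipofectamine RNAiMAX either with siDLEU1-2, 1 siRNA against the long noncoding RNA DLEU1, or with a negative control siRNA (siCtrl), and total RNA was collected after 72 h. Each line has 1 array per siRNA, so errors are SDs over the 3 lines, and no error can be given for a change in a single line. A level below is the log2 processed signal minus the 75th percentile of that array, and a log2 fold change is siDLEU1-2 minus siCtrl within a line.

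DLEU1 fell by 4.10, 3.63, and 3.44 on the log2 scale in HSC-3, KON, and Ca9-22, and limma called the change (adjusted p = 0.0227). Between 42.98% and 45.66% of the probes on an array were well above background. All 6 squamous epithelium markers examined (KRT5, KRT14, KRT6A, KRT17, DSG3, and SFN) had a probe that passed the filter described below. Markers of other cell types were not all absent. Of the fibroblast markers, COL1A1 was well above background on all 6 arrays, DCN on 1, and COL1A2 and LUM on 0. The monocyte marker CD14 was so on all 6, with a processed signal from 51.68 in Ca9-22 to 12940 in HSC-3, and the endothelium markers CDH5 and VWF had a probe so on 5 arrays each. Among the squamous markers, KRT6A, DSG3, and SFN were called lower by limma after siDLEU1-2, whereas KRT5, the 3 probes of KRT14, and KRT17 were not called. KRT5 had a mean log2 fold change of -1.14, the KRT14 probes of -1.72, -1.57, and 0.01, and KRT17 of 0.14, with 1.34 in Ca9-22. Of the other markers COL1A1 was called higher, while CD14, with a mean of 0.51, was not called. CDH5 and VWF were not called either, and each had 1 dim siCtrl array in a line where it was kept only through siDLEU1-2, the higher group. The part of these markers in the kinase results was not tested. In bulk RNA, fewer cells expressing a gene and less of its RNA per cell cannot be told apart.

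The sequences that matter most here are those of the paired probes of MAPK9, MAP3K8, and MAPK11, because the results for these genes differ by probe. Each probe has 60 bases, and the first 30 are shown 5′ to 3′ as the scanner files give them, in lower case throughout because no part of a probe is singled out. The files place the MAPK9 probes on the minus strand at chr5:179669667-179669726 and chr5:179673231-179673290 of hg19, the MAP3K8 probes on the plus strand at chr10:30728298-30728357 and chr10:30749980-30750039, and the MAPK11 probes on the minus strand at chr22:50702278-50702337 and chr22:50703225-50703284. The order below is the same.
MAPK9 (A_23_P167692): cagctgggaacaccatcagcagagttcatg
MAPK9 (A_33_P3400192): cctcatctcagattcacttgttgcaaccta
MAP3K8 (A_33_P3246505): ggctggcaggcatgattttaaaaaatgtaa
MAP3K8 (A_23_P23947): tgacgtgattctaaggcaggaatttgagag
MAPK11 (A_33_P3409513): tctgtgggtcagtcctctttccttgtccca
MAPK11 (A_33_P3409508): actcctatggtcacagacttctggcctagg

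The probes of a pair read different stretches of their gene, since the longest run of bases they share is 4 for MAPK9, 6 for MAP3K8, and 5 for MAPK11. Their starts lie 3564, 21682, and 947 bases apart. The scanner files list the first MAPK9 probe under the transcripts NM_002752, NM_139068, NM_139069, and NM_139070, and the second under NM_001135044. The files assign both MAPK11 probes to NM_002751, while the first MAP3K8 probe is assigned to ENST00000375322 and the second to NM_005204. Exon positions of these probes were not analysed here.

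The antisense strand of siDLEU1-2 is shown next with its seed, bases 2 to 8, in capitals, because a seed can pair with other transcripts.
siDLEU1-2 antisense: uUAAGUGCgauaaccccugua

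The complement of the seed, GCACTTA, was found in 0 of the 67 cascade probes and in 138 of the 50599 probes on the array (0.273%). The probes cover 60 bases of a transcript each, so this count says nothing of the rest of the transcripts.

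Most cascade genes were measurable in these cells. Of the 67 probes, 55 from 34 genes passed the filter, which required that in every line 1 array or both be well above background, and 51 of the 55 were so on all 6 arrays. MAPK4, MAPK10, MAPK15, MAP3K12, MAP3K15, and MAP4K1 had no probe that passed. MAPK15, an atypical MAP kinase, and MAP3K15 were well above background on no array. MAPK4, another atypical kinase, was well above background on both Ca9-22 arrays, and 1 probe of MAPK10, the JNK known mainly from neurons, on both KON arrays and the HSC-3 siDLEU1-2 array. A further 4 probes of kept genes (MAP2K3, MAP3K13, MAPK8, and MAPK12) did not pass.

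After siDLEU1-2 single cascade probes moved in both directions. The 55 kept probes had a median log2 fold change of -0.01, beside 0.01 over all 19956 kept probes, and single probes ranged from -1.39 to 2.58. limma called 3 probes higher, where 3.98% of all kept probes were called higher (5.45% of the members), and 2 lower, where 4.52% were called lower (3.64% of the members). Over 2-fold changes in all 3 lines were found for 3 probes, beside 4.38% of all kept probes. These shares of called probes are close to the background, so the called members are described as single genes. At an unadjusted p below 0.05 were 22 of the 55 probes (40%), where 29.5% of all kept probes were so.

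Dim values enter these counts. The filter kept 4 probes with 1 dim array (MAP3K8 A_23_P23947, MAPK8 A_33_P3250289, MAPK9 A_33_P3400192, and MAPK11 A_33_P3409508), each in that line only through the siRNA group in which it is higher, so the way they were kept favors a difference there. They include 2 of the 5 called probes and 2 of the 3 over 2-fold in all lines. When all 6 arrays had to be well above background these 4 dropped out, and 51 probes were left, of which 8 were called (15.7%, against 11.4% of the 18094 probes under that filter) and 1 was over 2-fold (1.96%, against 3.23%).

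Direction and size were also counted by line. In all 3 lines, 16 of the 55 probes were higher and 17 lower, where 26.9% and 26.7% of all kept probes were so, and the other 22 were mixed. Over 2-fold differences were seen for 9, 6, and 10 probes in HSC-3, KON, and Ca9-22, against 14.2%, 14.6%, and 13% of all kept probes. In 18 of the 55 probes the log2 fold change stayed under 0.5 in size in every line. MAP3K7 (TAK1), which links cytokine receptors to JNK, p38, and NF-kappaB signaling, had the narrowest range over the lines, from -0.09 to 0.10.

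**Figure D1:**
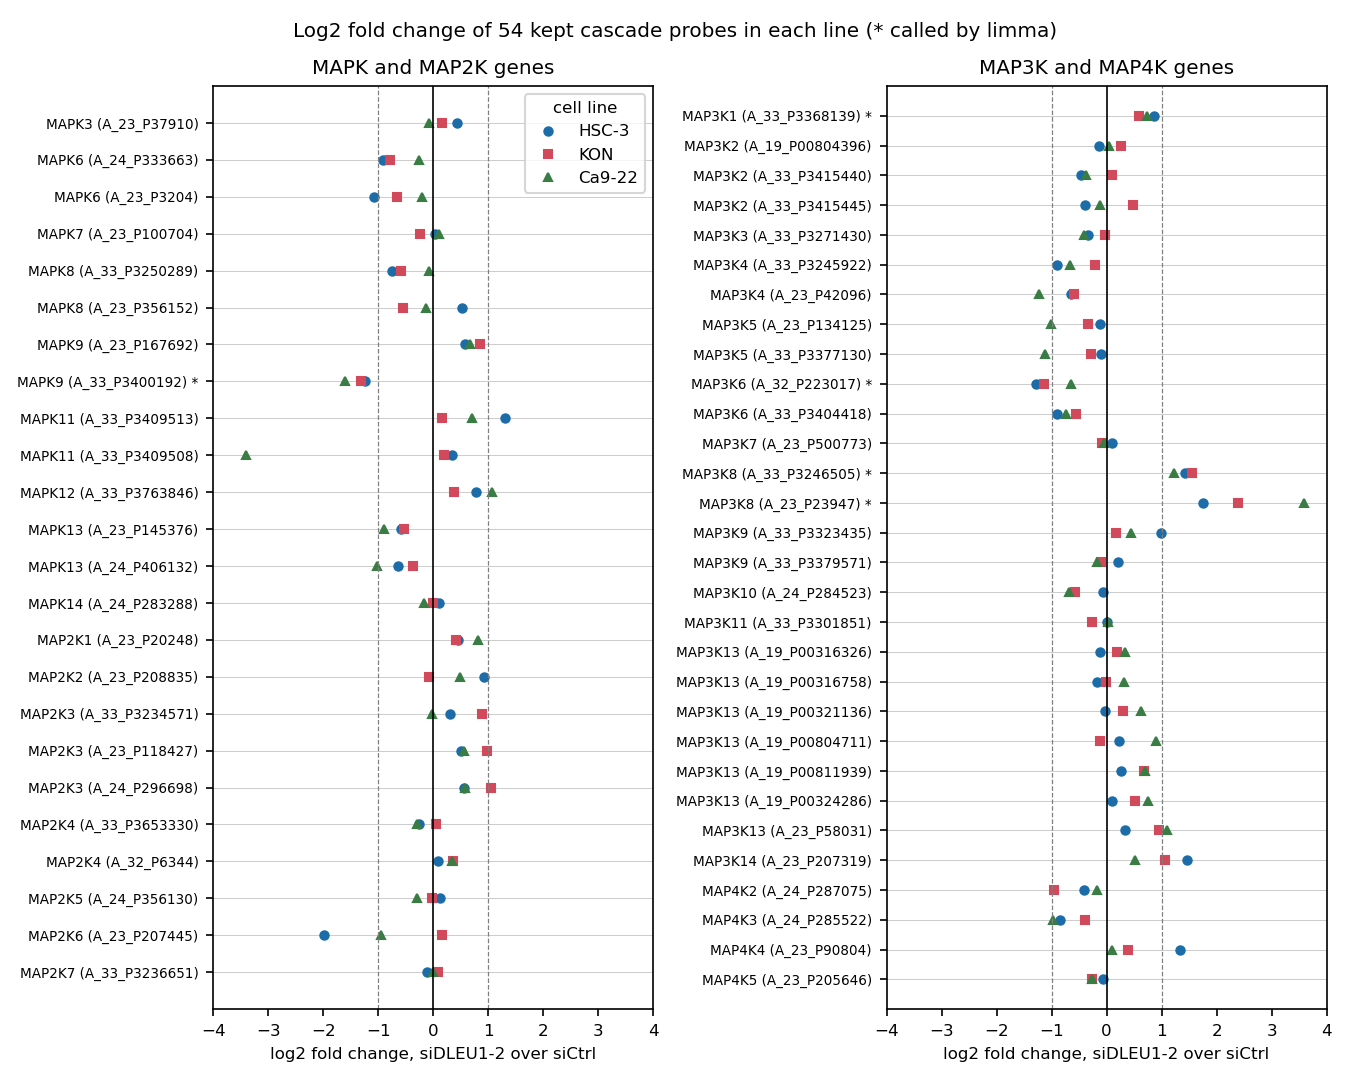
Log2 fold change of siDLEU1-2 over siCtrl (x axis) for 54 of the 55 kept probes (y axis) of MAPK and MAP2K genes (left) and MAP3K and MAP4K genes (right), with 1 marker per cell line. Dashed lines mark 2-fold and asterisks the 5 probes called by limma. The markers of both MAP3K8 probes lie to the right of the 2-fold line in all 3 lines, and those of the second MAPK9 probe to the left of it.

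The ERK, JNK, and p38 branches were compared over their MAPK and MAP2K genes. The ERK branch, which includes ERK1 (MAPK3) and its activating kinases MAP2K1 and MAP2K2, had a median log2 fold change of 0.31 over 4 probes. None of them was called by limma, and the methods' t-test called 0 after adjustment. At an unadjusted limma p below 0.05 was 1 of the 4, beside 29.5% of all kept probes. The medians within HSC-3, KON, and Ca9-22 were 0.44, 0.22, and 0.20. Within the branch, the MAP2K probes were at 0.44 and 0.56, and MAPK3, which they activate, at 0.17. MAP2K1 was higher in every line (0.45, 0.41, and 0.81, adjusted p = 0.0948 from limma), which did not pass the threshold. Without HSC-3, the median of the branch was 0.12.

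The JNK branch holds JNK1 (MAPK8), JNK2 (MAPK9), and JNK3 (MAPK10) with MAP2K4 and MAP2K7. Its median was -0.05 over 7 probes from 4 genes, and -0.11, 0.06, and -0.07 within HSC-3, KON, and Ca9-22. Its probes spread from -1.39 to 0.70, and both ends were probes of MAPK9. MAP2K7 was within 0.11 of no change in every line, and MAP2K4 gave means of -0.17 and 0.27 from its probes. MAPK8 gave -0.47 and -0.05, and neither was called.

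The p38 branch holds p38 alpha (MAPK14), beta (MAPK11), gamma (MAPK12), and delta (MAPK13), with MAP2K3 and MAP2K6 above them. Its median was 0.19 over 10 probes, and 0.33, 0.17, and -0.09 within HSC-3, KON, and Ca9-22. limma called 0 of the 10 probes, and the methods' t-test called 0 after adjustment. At an unadjusted limma p below 0.05 were 6 of them, 4 higher and 2 lower, beside 29.5% of all kept probes. The isoforms pointed different ways without passing the test. MAPK14 was at -0.03, MAPK12 was higher in every line with a mean of 0.74 ± 0.35 (SD over 3 lines; limma adjusted p = 0.0795), and the MAPK13 probes were lower in every line with means of -0.67 and -0.68 (adjusted p = 0.0642 and 0.0885). MAP2K3 was positive by all 3 of its kept probes, with means of 0.40, 0.68, and 0.73, whereas MAP2K6 had a mean of -0.93. With the probes of a gene averaged, the median of the p38 branch was -0.07, and without Ca9-22 it was 0.42, so its sign depends on how genes with several probes are counted. The branches were not tested against each other.

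Outside these branches, ERK5 (MAPK7) and its activator MAP2K5 had means of -0.03 and -0.07. The atypical kinase ERK3 (MAPK6) was lower in every line by both of its probes, with means of -0.66 and -0.64, although limma called neither (adjusted p = 0.0983 and 0.129). By both probes the values were lowest in HSC-3, at -0.92 and -1.07, and nearest to 0 in Ca9-22, at -0.26 and -0.20.

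By level of the cascade, the medians were -0.05 for 15 MAPK probes, 0.33 for 10 MAP2K probes, 0.02 for 26 MAP3K probes, and -0.35 for 4 MAP4K probes. Among the MAP2K probes 4 were higher in all 3 lines and 0 were lower, and the other 6 were mixed. limma called 0 of the 10 MAP2K and 0 of the 4 MAP4K probes, and the methods' t-test called 0 in either level after adjustment. At an unadjusted limma p below 0.05 were 3 MAP2K probes and 1 MAP4K probe, beside 29.5% of all kept probes. Of the MAP4K genes, which act upstream of JNK signaling, MAP4K2, MAP4K3, and MAP4K5 were lower in every line, and MAP4K4 was higher in every line with 1.34, 0.38, and 0.09 in HSC-3, KON, and Ca9-22. The MAP2K median was 0.05 with the probes of a gene averaged. Of the 26 MAP3K probes, 3 were called higher (11.5%, against 3.98% of all kept probes) and 1 lower (3.85%, against 4.52%). MAP3K8 gave 2 of these calls, 1 of them from the probe with a dim array.

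**Figure D2:**
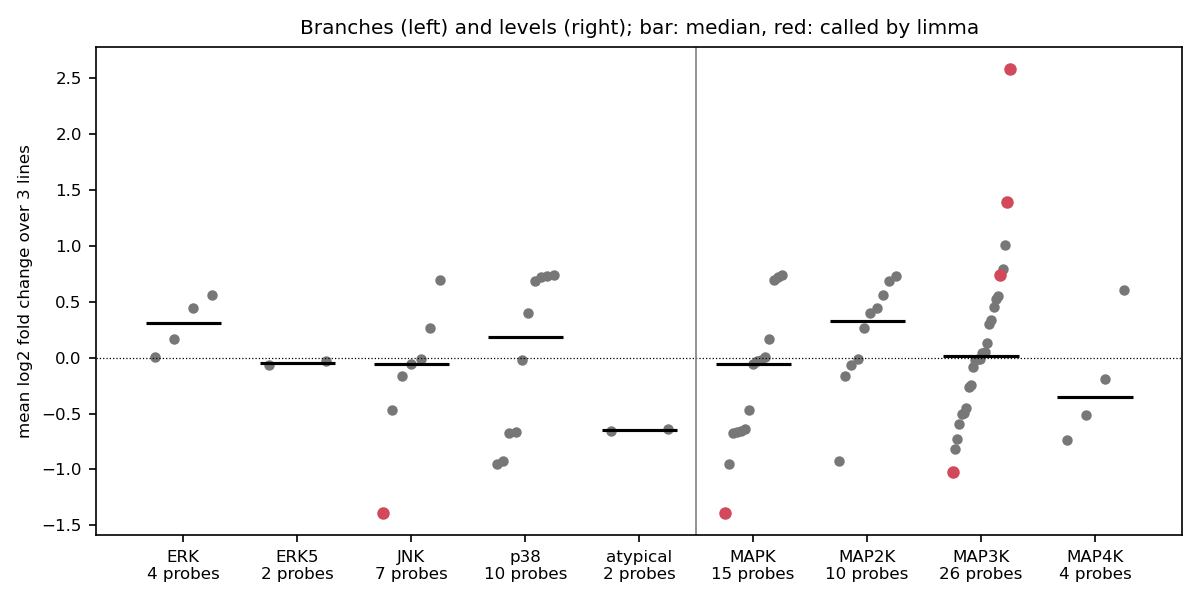
Mean log2 fold change over the 3 lines (y axis) of each kept probe, by branch (left of the vertical line) and by level (right of it), with bars at the medians and the 5 probes called by limma in red. The ERK, JNK, and p38 medians lie at 0.31, -0.05, and 0.19, and the probes of each branch spread over more than these medians differ.

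MAP3K8 (TPL2), a MAP3K known for activating MAP2K1 and the ERK branch in inflammatory signaling, rose by both of its probes. By A_33_P3246505, the level went from 0.14 after siCtrl to 1.56 after siDLEU1-2 in HSC-3, from -0.91 to 0.63 in KON, and from -0.43 to 0.79 in Ca9-22. Every siDLEU1-2 array was above every siCtrl array, and all 6 were well above background. The rise was 2.68-fold, 2.92-fold, and 2.33-fold in HSC-3, KON, and Ca9-22, and the log2 fold change averaged 1.40 ± 0.16 (SD over 3 lines; limma adjusted p = 0.0247).

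By A_23_P23947, the level of MAP3K8 went from 0.17 to 1.93 in HSC-3, from -1.40 to 0.99 in KON, and from -3.91 to -0.32 in Ca9-22. The probe rose in each line, but across the lines the ranges of siCtrl and siDLEU1-2 arrays overlap. The Ca9-22 siCtrl array was not well above background. Counted from the floor of detection, the rise there was 8.70-fold, beside 3.39-fold in HSC-3 and 5.25-fold in KON. That floor is the lowest level of any probe well above background on the array. Some dim probes lie above it, so the value is not a strict bound. The probe was kept in Ca9-22 only through siDLEU1-2, the higher group. The mean log2 fold change was 2.58 ± 0.93 (SD over 3 lines; limma adjusted p = 0.0320). Raising dim values to the floor of detection gave 2.43, and normexp background correction gave 1.71, both called, and without Ca9-22 the mean was 2.08 and was not called (adjusted p = 0.0519 from limma). The gap between the MAP3K8 probes was 0.34, 0.85, and 2.37 in HSC-3, KON, and Ca9-22.

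MAP3K1 (MEKK1), which feeds mainly the JNK and ERK branches, was higher by its single probe at chr5:56191750-56191809. Its level went from 2.16 to 3.03 in HSC-3, from 2.73 to 3.33 in KON, and from 2.65 to 3.39 in Ca9-22. All 3 siDLEU1-2 arrays lay above the siCtrl arrays. The rise was small and even, 1.83-fold, 1.51-fold, and 1.67-fold, with a mean of 0.74 ± 0.14 (SD over 3 lines; limma adjusted p = 0.0493). The call lies at the threshold and was lost under 8 of its 12 alternatives, among them quantile normalization (adjusted p = 0.0508) and median centering (adjusted p = 0.0640), with adjusted p from 0.0281 to 0.728 over the 12.

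MAP3K6 (ASK2), a partner of the stress kinase ASK1 (MAP3K5), was lower. By A_32_P223017 its level went from 0.33 to -0.95 in HSC-3, from 0.43 to -0.71 in KON, and from 1.31 to 0.66 in Ca9-22. Every line fell, and the Ca9-22 arrays were the highest of each siRNA. The mean log2 fold change was -1.03 ± 0.34 (SD over 3 lines; limma adjusted p = 0.0443). A_33_P3404418, the other MAP3K6 probe, gave -0.90, -0.56, and -0.74 (adjusted p = 0.0526), which missed the threshold as reported and passed it under 4 of 12 alternatives. Its mean was -0.29 with normexp background correction. MAP3K5 itself had means of -0.49 and -0.51 by its probes, with -0.11 by either in HSC-3 and -1.02 and -1.12 in Ca9-22, and was not called.

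The remaining MAP3K genes were not called. MAP3K14 (NIK), known for noncanonical NF-kappaB signaling, was higher in every line at 1.46, 1.06, and 0.51 in HSC-3, KON, and Ca9-22 (limma adjusted p = 0.0620). MAP3K3, an activator of ERK5 signaling, had a mean of -0.26, and the mixed lineage kinases MAP3K10 and MAP3K11, which act on JNK, had means of -0.45 and -0.08. MAP3K9, of the same family, gave 0.53 and -0.03 by its probes, and MAP3K2 gave -0.24, -0.01, and 0.06.

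MAPK9 (JNK2), a terminal kinase of the JNK branch, had opposite signs by its 2 probes, of which 1 was called. By A_33_P3400192 the level went from -2.40 to -3.65 in HSC-3, from -0.55 to -1.86 in KON, and from 1.18 to -0.43 in Ca9-22. It fell in every line, and the log2 fold change averaged -1.39 ± 0.19 (SD over 3 lines; limma adjusted p = 0.0247), and only the HSC-3 siDLEU1-2 array was not well above background. In that line the probe was kept through siCtrl, the higher group, and fell 2.28-fold when counted to the floor of detection. With normexp background correction, the mean was -0.78 and was not called (adjusted p = 0.0741).

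By A_23_P167692 the level of MAPK9 went from 1.67 to 2.25 in HSC-3, from 0.89 to 1.73 in KON, and from 0.96 to 1.62 in Ca9-22. All 6 arrays were well above background and each line was higher after siDLEU1-2. The mean was 0.70 ± 0.14 (SD over 3 lines; limma adjusted p = 0.0536), which missed the threshold in the values as reported and passed it under 3 of 12 alternatives. The probes differed by 1.83, 2.16, and 2.27 in HSC-3, KON, and Ca9-22, a mean gap of 2.09 ± 0.23 (SD over 3 lines). With 3 lines, the smallest two-sided p that an exact sign-flip test of this gap allows is 0.25, and it was not run. The sign for MAPK9 thus differed between probes that the files list under different transcripts, and the cause was not tested.

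**Figure D3:**
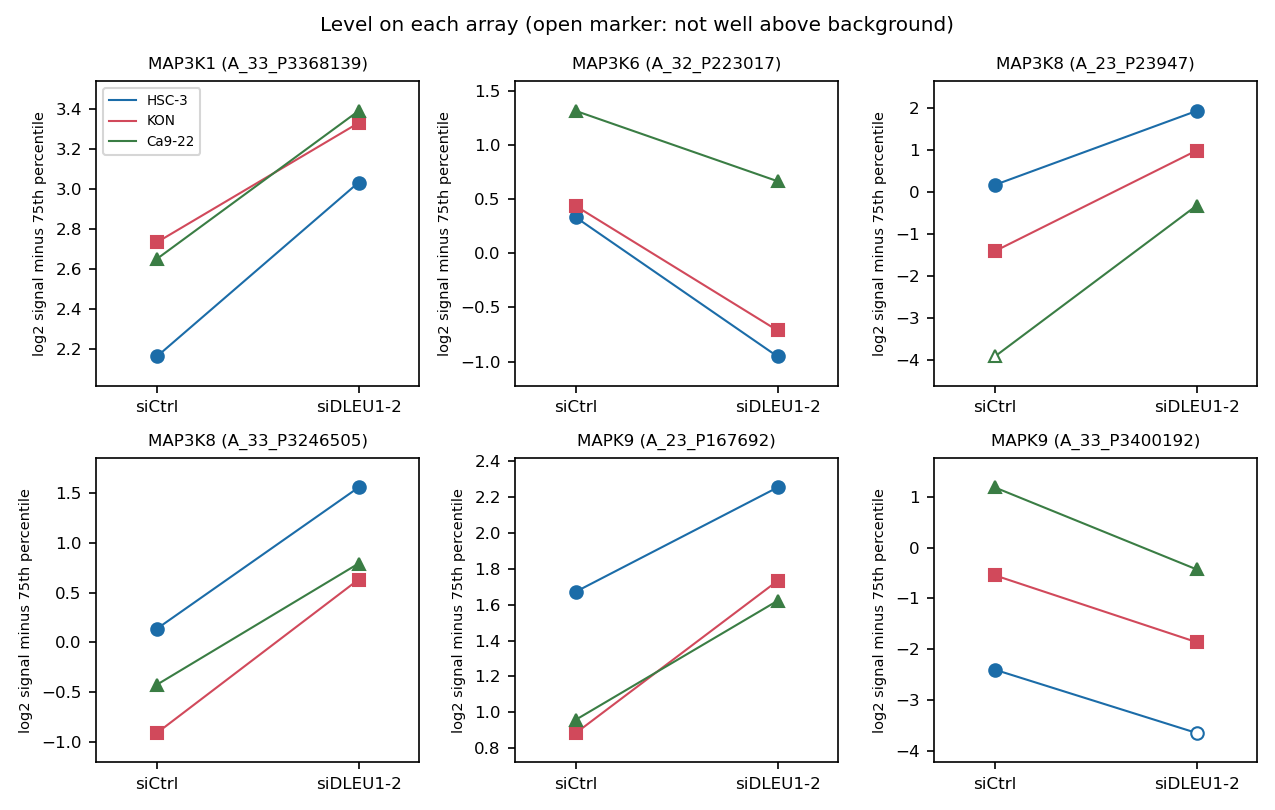
Level (y axis, log2 processed signal minus the 75th percentile of the array, with a scale of its own in each panel) after siCtrl and siDLEU1-2 (x axis) for the 5 probes called by limma and the other MAPK9 probe, with 1 line and marker shape per cell line and open markers for arrays not well above background. All lines of MAP3K1, MAP3K8, and MAPK9 A_23_P167692 go up, and all of MAP3K6 and MAPK9 A_33_P3400192 go down.

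None of the 5 calls was made without the pairing within lines or without any 1 line. Such fits called few or no probes on the whole array, so the loss is not particular to these probes. Even DLEU1 had a limma adjusted p of up to 0.103 with 1 line left out. With no replicate block, which leaves the cell line out of the fit, limma called 0 of the 55 probes (3 passed 0.05 unadjusted). The methods' t-test called 0 after adjustment and 5 before it. Leaving out HSC-3, KON, or Ca9-22 also left 0 called (18, 21, and 16 had an unadjusted p below 0.05), where 0, 0, and 244 of all 19956 kept probes were called and 0 with no block, while the mean log2 fold changes without 1 line stayed between 1.32 and 1.48 for MAP3K8 A_33_P3246505 and between -1.46 and -1.28 for MAPK9 A_33_P3400192. Over 2-fold in both remaining lines were 3 probes without HSC-3, 3 without KON, and 5 without Ca9-22. Shares of all kept probes over 2-fold or at an unadjusted p below 0.05 are not given for the fits above. Those counts are thus not read as a result about the members.

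MAPK9 was not the only gene with probes in disagreement. Of the 14 cascade genes with 2 or more kept probes, 5 had probes of opposite sign (MAP2K4, MAP3K2, MAP3K9, MAPK9, and MAPK11), and in MAPK9 and MAPK11 both were over 0.5 in size. MAPK11 (p38 beta) gave 1.31, 0.15, and 0.71 in HSC-3, KON, and Ca9-22 by A_33_P3409513, and 0.35, 0.19, and -3.40 by A_33_P3409508. The level behind the second probe went from -2.51 to -2.16 in HSC-3, from -2.25 to -2.06 in KON, and from -0.42 to -3.81 in Ca9-22. Its only negative value was that of Ca9-22, where the siDLEU1-2 array was not well above background, and it had the widest range over the lines of the 55 probes (3.74). The fall in Ca9-22 was 7.33-fold, counted to the floor of detection. With normexp background correction the means of the MAPK11 probes were 0.47 and -0.46. Without Ca9-22 the mean of the second turned from -0.95 to 0.27, and it was called in neither case.

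In some genes the probes gave like values. The MAPK13 probes differed by 0.01 in their means, those of MAPK6 by 0.02, and those of MAP3K5 by 0.02. Probes of the same sign could still differ in size, as in MAP3K8, whose gap was widest in Ca9-22 where 1 probe had a dim array, and in MAP3K13, with a gap of 0.75 between its highest and lowest mean. All 7 kept probes of MAP3K13 (LZK), a kinase upstream of JNK, had positive means from 0.05 to 0.79, and none was called, with 5 of them on the noncoding transcript NR_038322 and the highest mean from A_23_P58031 (adjusted p = 0.0817 from limma).

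**Figure D4:**
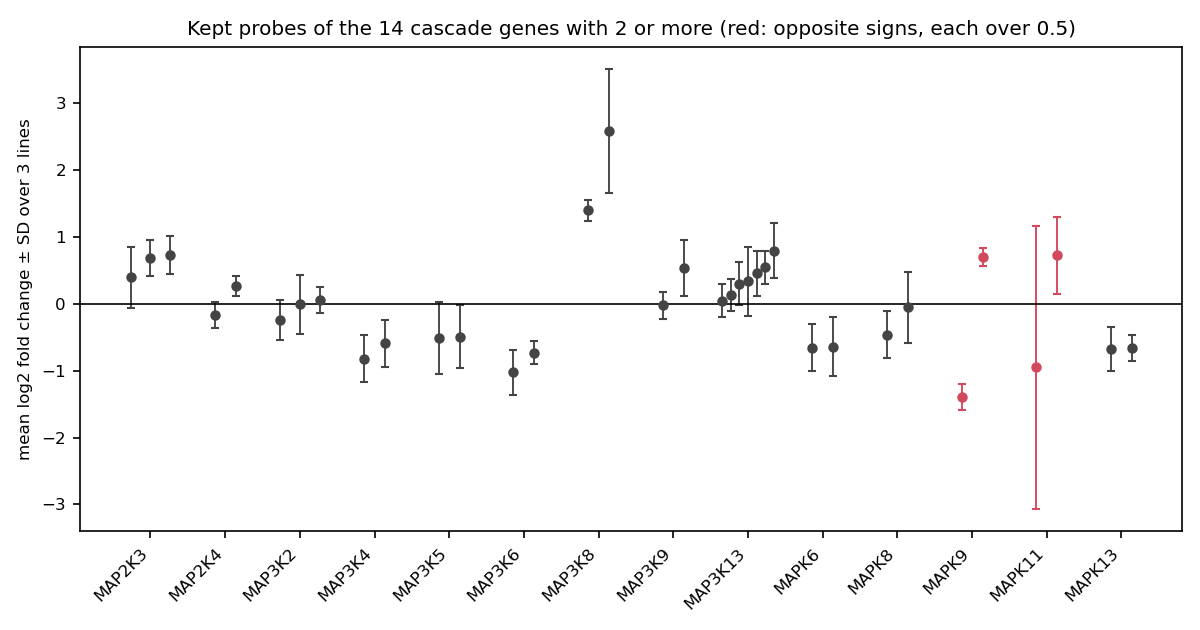
Mean log2 fold change ± SD over the 3 lines (y axis) of every kept probe of the 14 cascade genes with 2 or more kept probes (x axis). The bars of the MAPK9 probes (red) do not overlap, at -1.39 and 0.70, whereas the lower MAPK11 probe (red) has an SD of 2.12.

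The cell lines themselves differed in these genes about as often as in others. By limma's F-test of the cell line terms, 27 of the 55 probes (49.1%) were called, beside 53.8% of all kept probes. In this test the arrays of a line, which got different siRNAs, stand in for replicates. The widest range of line means, 3.40, was that of MAPK9 A_33_P3400192 (adjusted p = 0.00481), whose mean level over both siRNAs was -3.02, -1.20, and 0.38 in HSC-3, KON, and Ca9-22. Its HSC-3 siDLEU1-2 array was dim, and with that value raised to the floor the probe was still called for the line (adjusted p = 0.00310 from limma's F-test). The other MAPK9 probe was instead highest in HSC-3, at 1.96, with 1.31 in KON and 1.29 in Ca9-22 (adjusted p = 0.0417).

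MAP2K6, the kinase above p38, followed with line means of 0.79 in Ca9-22, -0.94 in HSC-3, and -2.53 in KON (adjusted p = 0.0173 from limma's F-test). Its response also differed, with -1.99, 0.15, and -0.94 in HSC-3, KON, and Ca9-22, and was not called for the siRNA (adjusted p = 0.231). MAP3K8 A_23_P23947 was highest in HSC-3 (1.05) and lowest in Ca9-22 (-2.12), and MAPK8 A_33_P3250289 was highest in Ca9-22 (-0.78) and lowest in KON (-3.24). Both were called for the line (adjusted p = 0.0144 and 0.00721), although in its lowest line each had 1 dim array and was kept only through the other siRNA. With dim values raised to the floor of detection, these lowest means were -1.88 and -3.23, and both were still called (adjusted p = 0.00771 and 0.00521 from limma's F-test). MAP3K2, MAP2K7, and MAP2K1 were among those not called, with ranges of 0.10 for MAP3K2 A_33_P3415440, 0.21 for MAP2K7, and 0.23 for MAP2K1.

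Around the cascade, 6 lists of genes that feed it, hold it together, or respond to it were read with the same fit. Of their 92 kept probes, limma called 4 higher (4.35%) and 7 lower (7.61%), where 3.98% and 4.52% of all kept probes were called. Of 25 kept probes of Ras and Raf inputs, such as SOS1 and GRB2, limma called 0, with a median log2 fold change of -0.04. At an unadjusted limma p below 0.05 were 8 of them, 4 in each direction, beside 29.5% of all kept probes. The methods' t-test called 0 of these inputs after adjustment. Of 19 probes for scaffolds and adaptors, 1 was called higher (5.26%, against 3.98% of all kept probes) and 0 lower, with a median of 0.31. This was GADD45B, a stress-induced binding partner of MAP3K4, with 2.08, 1.70, and 1.70 in HSC-3, KON, and Ca9-22 and a mean of 1.82 ± 0.22 (SD over 3 lines; limma adjusted p = 0.0231). MAP3K4 itself was lower in every line by both probes (means of -0.59 and -0.82) and was not called.

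Among 11 probes of MAP3K and MAP4K relatives, 0 were called higher and 2 lower (18.2%, against 4.52% of all kept probes), with a median of -0.38. These were TAOK1, which acts upstream of p38, at -0.96 ± 0.21 (SD over 3 lines), and MINK1, a relative of MAP4K4, at -1.14 ± 0.40, or -0.64 with normexp background correction. Among 14 probes of kinases downstream of ERK and p38, 1 was called higher (7.14%, against 3.98% of all kept probes) and 2 lower (14.3%, against 4.52%), with a median of -0.24. The p38 substrate MAPKAPK2 was higher at 0.91 ± 0.19, and the ERK substrate RPS6KA3 (RSK2) was lower by both of its probes, at -1.20 ± 0.31 and -0.91 ± 0.17. None of these was over 2-fold in all 3 lines, and they are named because the counts are small.

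The MAP kinase phosphatases, which remove the activating phosphates from MAPK enzymes, had the highest median of the 6 lists. It was 1.02 over 9 probes, of which 2 were called higher (22.2%, against 3.98% of all kept probes) and 1 lower (11.1%, against 4.52%). DUSP5, a nuclear phosphatase of ERK, was higher at 2.14 ± 0.16 (SD over 3 lines), and DUSP1, which acts mainly on p38 and JNK, at 1.92 ± 0.18 (limma adjusted p = 0.0227 for either). DUSP6, a cytoplasmic phosphatase of ERK, was lower at -0.93, -0.93, and -1.42 (adjusted p = 0.0346).

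Of 14 probes for transcription factors that the cascade phosphorylates or induces, 0 were called higher and 2 lower (14.3%, against 4.52% of all kept probes), with a median of -0.42. These lists hold few probes, and no share was tested against the rest. EGR1, an early gene of ERK signaling, went from a level of 3.70 to 1.13 in HSC-3, from 1.69 to 0.37 in KON, and from 1.77 to 0.06 in Ca9-22. Every siDLEU1-2 array was below every siCtrl array, and the log2 fold change averaged -1.87 ± 0.64 (SD over 3 lines; limma adjusted p = 0.0329). ELK4, a partner of serum response factor, was lower by A_33_P3365010 at -1.07 ± 0.25 (adjusted p = 0.0338), and its other probe, A_23_P161098, gave -1.05, -0.30, and -0.98 and was not called (adjusted p = 0.0854). Like those of the cascade genes, these calls were mostly lost in the fits that called few or no probes on the whole array. With no block 0 of the list probes were called, and without 1 line 0 were called without HSC-3 or KON and 2 without Ca9-22.

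**Figure D5:**
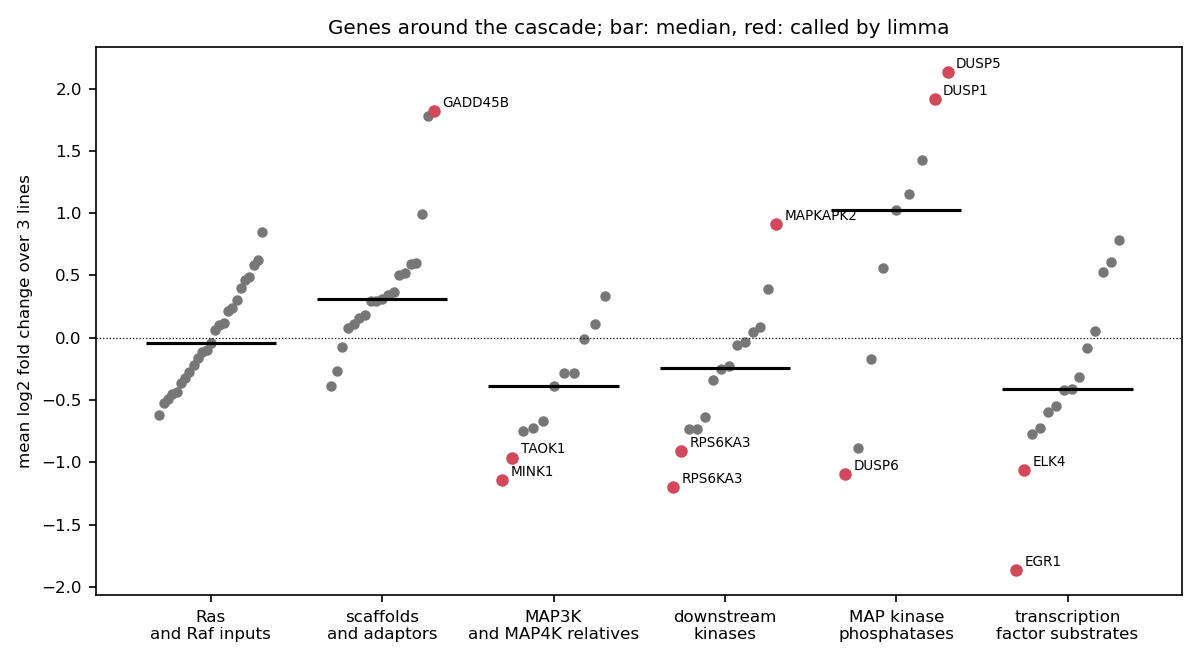
Mean log2 fold change over the 3 lines (y axis) of each kept probe in 6 lists of genes around the cascade (x axis), with bars at the medians and probes called by limma in red with their gene names. The phosphatase list has the highest median, 1.02, with DUSP5 and DUSP1 at its top and DUSP6 at its bottom.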

How the data were processed

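Total RNA (100 ng) from each of 6 cultures was labeled with Cy3 and hybridized to 1 one-color Agilent array. The authors deposited Feature Extraction output (10.7 per the labels), in which each spot has an intensity on a linear scale after background subtraction and no normalization between arrays. Their series table holds the same values to within 0.497%. The coordinates of probes come from the scanner files and refer to hg19.

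The log2 processed signal, without outlier spots, was averaged per probe and centered on each array's 75th percentile. Probes were taken as well above background on an array if 50% or more of their spots were, and 19956 that met this in every line on 1 array or both were kept. siRNA and cell line were the terms of the fit by limma 3.58.1 (R 4.3.3), with Benjamini-Hochberg adjustment over the kept probes at 0.05. Both arrays of a pair come from 1 cell line, and their deviations from the siRNA means correlated at 0.83, 0.81, and 0.82. The fit was tested on simulated data in which 200 of 19956 probes changed by 1.5 on the log2 scale. It called 189 of these and 16 unchanged probes. The simulation did not model dim arrays or responses that differ between lines.

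The number of arrays limits the precision, and nothing says whether cultures were repeated, so p-values measure only the spread between these samples. No spot was saturated, and all arrays were on 1 slide. The members, the branches, and the lists were chosen with earlier results of these data known. Values in every sample are given for members over 2-fold in all lines or called by limma, and for genes whose probes have opposite signs, each over 0.5. Some items are not reported here. The remaining members are given by counts and ranges, and those named outside this rule were chosen after their values were seen. The alternatives were quantile normalization, median centering, a percentile over detected probes, normexp (offset 50), the series table, other filters, a detection floor for dim values, leaving out each line, no block, the methods' t-test, thresholds of 1.5-fold and 3-fold, and the mean of a gene's probes. Of the fibroblast, blood cell, and endothelium marker lists, 1 of 5, 1 of 8, and 2 of 7 probes were kept.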

Additional observations from a re-analysis of the deposited data

Results flagged for a closer look

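Among the kept cascade probes, 2 changed more than 2-fold in 1 line and had the opposite sign in another. MAPK11 A_33_P3409508 was at -3.40 (log2 fold change, siDLEU1-2 over siCtrl) in Ca9-22 and at 0.35 and 0.19 in HSC-3 and KON. The Ca9-22 siDLEU1-2 array was not well above background and the probe was kept there only through siCtrl. Counted to the floor of detection, its fall in that line was 7.33-fold. MAP2K6 A_23_P207445 was at -1.99 in HSC-3 and -0.94 in Ca9-22 against 0.15 in KON. With 1 array per line and siRNA, these differences between lines were not tested.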

How the results depend on the processing

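The cascade probes called by limma were 5 as reported, 8 with normexp background correction, 8 with only probes well above background on all 6 arrays, 3 with a gene's probes averaged, and 0 with no filter, with no replicate block, or by the methods' t-test after adjustment. Leaving out any 1 line gave 0. With quantile normalization or median centering the calls stayed at 5, but 2 were higher and 3 lower, against 3 higher and 2 lower as reported. Counts over all probes moved too, and were 1697 of 19956 as reported, 2308 with normexp, 2065 of 18094 on all 6 arrays, 1258 of 15281 by gene means, 0 of 50544 with no filter, 0 with no replicate block, and 0 to 244 without 1 line. The pathway list probes called were 11 as reported, 17 with normexp or with the filter on all 6 arrays, 0 with no filter or no replicate block, and 0 to 2 without 1 line. Cascade probes over 2-fold in all lines were 3, beside 4.38% of all kept probes, then 1 with the filter on all 6 arrays, beside 3.23%. They were 6 at 1.5-fold, 1 at 3-fold, 1 by gene means, and 3 to 5 without 1 line. Shares of all probes are not given for these settings, so their counts are not read as a result about the members. Cascade probes called between lines were 27, beside 53.8% of all kept probes, then 12 with no filter and 11 to 14 without 1 line. For the last 2 settings no share of all probes is given either.

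The MAP2K median of 0.33 was 0.28 with quantile normalization or normexp, 0.26 with median centering, 0.27 with no filter, 0.05 by gene means, and 0.18 to 0.33 without 1 line. The MAP3K median of 0.02 was -0.054 with median centering, -0.066 by gene means, and 0.022 to 0.15 without 1 line. The MAP4K median of -0.35 was -0.43 with median centering, -0.23 with normexp, -0.45 with no filter, and -0.41 to -0.23 without 1 line. The p38 median of 0.19 was -0.07 by gene means, 0.40 with the filter on all 6 arrays, 0.09 with no filter, 0.11 with median centering, and 0.055 to 0.42 without 1 line, the ERK median 0.12 to 0.40, and the MAPK median of -0.05 was -0.33 to -0.014, and -0.13 with median centering, -0.10 with quantile normalization, -0.02 with normexp, -0.03 on all 6 arrays, and -0.01 with no filter. The JNK median of -0.05 was -0.13 with median centering, -0.10 with quantile normalization, -0.01 with normexp, -0.14 by gene means, and -0.12 to -0.01 without 1 line, with -0.01 on all 6 arrays and -0.03 with no filter. Among named probes, the sign changed once, to 0.27 for MAPK11 A_33_P3409508 without Ca9-22, where leaving out 1 line gave -1.60 to 0.27. The cause of these shifts was not tested. A slide block could not be fitted with 1 slide, and dim probes limit the rest.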
